A study of Mus musculus with 7 samples.

Results

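The 44 mitosis and spindle genes described here are protein-coding genes whose products carry a cell through mitosis, from the cyclin-dependent kinase that starts it to the contractile ring that ends it. They were chosen by name, and all 44 were found among the 11642 rows of the deposited expression table. The cells were C2C12, a line of mouse myoblasts that leave the cell cycle and fuse into myotubes when serum is withdrawn. All samples were taken on day 2 after the switch to differentiation medium. Of the 4 total RNA samples, 2 were controls that received a scramble siRNA (si-SCR) and 2 were depleted of lnc-SMaRT by transfection of siRNA #1 (si-SMaRT). Lnc-SMaRT is a long non-coding RNA of differentiating mouse muscle. The 2 samples of a group came from independent cell populations, a single siRNA sequence was used, and each sample is a whole culture in which myoblasts and myotubes are mixed. In such bulk RNA, fewer cells of a kind and less RNA per cell cannot be told apart. In the same series, RNA bound by lnc-SMaRT was recovered by pull-down in 1 library, with 1 library of a LacZ pull-down and 1 of the input.

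Mitosis genes are transcribed in a wave that peaks in G2 and M phase and are kept low in resting cells. Their promoters often hold a CCAAT box, bound by the NF-Y complex, and a cell cycle homology region (CHR), bound by the DREAM complex that silences the genes in resting cells and by the MYB and FOXM1 activators that switch them on. When myoblasts differentiate they withdraw permanently from the cell cycle, and the genes of this wave are shut off as they do. The layers of control follow each other: the CDK1 and cyclin kinases open mitosis, the kinetochore and its checkpoint hold anaphase back, and the anaphase-promoting complex with separase lets it go.

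The promoter letters are shown first because they are what the genes were found to share beyond their function. RefSeq promoters, read from 250 bases before to 50 bases after the transcription start, were at hand for 36 of the 44 genes. The core CHR letters TTTGAA, searched on both strands (TTCAAA on the other), were in 28 of the 36 promoters, or 77.8%. They were also in 18.1% of all 27025 promoters listed, and in 11.5% of the 8420 promoters of genes expressed in these cells. CCAAT, or ATTGG on the other strand, was in 29 of the 36 (80.6%), against 37.9% of all promoters. Both motifs together were in 25 of the 36 (69.4%), against 7.12% of all promoters and 4.94% of those expressed. The variant TTCGAA, which reads the same on both strands, was in 4 promoters (11.1%), against 1.57% of all. CCAAT and TTTGAA can share a base at their ends and each was counted on its own, and a match describes the letters and not a bound factor. Of the 35 CHR matches, 26 lay within 60 bases before to 50 bases after the start, in 25 of the 28 genes, and 26 pointed in the direction of the gene. Neither motif was found in the windows of Nuf2, Mad2l1, Birc5 and Nusap1. Cdc25b and Bub1 held the variant with CCAAT, and Ccnb1 and Cenpe held CCAAT without a CHR. Ccna2, Cdc25c, Smc4, Spc24, Aurkb, Incenp, Tpx2 and Kif20a were not in the promoter table.

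The stretches below are the 100 bases directly upstream of the RefSeq start (build GRCm38.p6, written 5′ to 3′ in the direction of the gene) for 6 genes. They were picked for a whole CHR within 60 bases before the start and little overlap with the gene model. In many other genes, such as Cenpf and Racgap1, the CHR near the start lay after it, so the layout shown is not that of all. Capitals mark TTTGAA and CCAAT in either orientation.
Cdk1, chr10:69352913-69353012, minus strand: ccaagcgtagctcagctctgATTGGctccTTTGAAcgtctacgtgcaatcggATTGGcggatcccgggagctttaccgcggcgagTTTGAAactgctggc
Top2a, chr11:99024190-99024289, minus strand: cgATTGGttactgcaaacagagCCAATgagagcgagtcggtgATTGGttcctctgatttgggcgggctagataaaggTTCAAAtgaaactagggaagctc
Ncapg, chr5:45669825-45669924, plus strand: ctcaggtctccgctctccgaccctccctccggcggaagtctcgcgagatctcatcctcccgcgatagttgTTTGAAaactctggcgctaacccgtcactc
Cdc20, chr4:118437344-118437443, minus strand: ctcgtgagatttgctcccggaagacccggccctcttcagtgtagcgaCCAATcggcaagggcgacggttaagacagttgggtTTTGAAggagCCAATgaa
Espl1, chr15:102296193-102296292, plus strand: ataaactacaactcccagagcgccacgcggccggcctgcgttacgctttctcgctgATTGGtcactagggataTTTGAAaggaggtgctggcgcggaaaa
Kif11, chr19:37376282-37376381, plus strand: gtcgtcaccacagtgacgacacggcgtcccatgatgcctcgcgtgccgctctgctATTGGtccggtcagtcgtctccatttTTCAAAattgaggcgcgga
In Cdk1, Cdc20, Espl1 and Kif11 a CCAAT box stands upstream of the CHR nearest to the start, and Top2a has 3 CCAAT boxes in front of it within this stretch. Ncapg shows the CHR alone here, its only CCAAT lying further upstream.

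**Figure D1:**
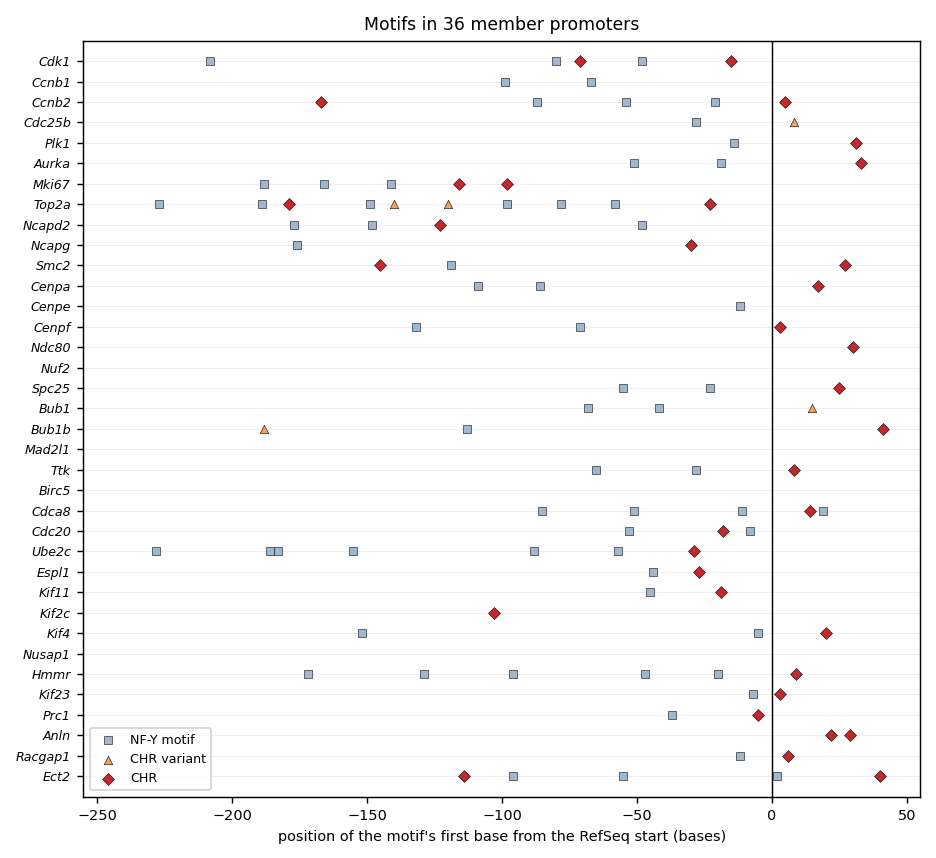
Positions of the motifs in the promoters of 36 genes. The horizontal axis gives the position of a motif's first base in bases from the RefSeq start (vertical line) and each line is 1 gene, in the order of their roles. Red diamonds mark the CHR, orange triangles its variant and blue squares the CCAAT motif bound by NF-Y. Of the 35 diamonds, 26 lie from 60 bases before to 50 bases after the start, and the lines of Nuf2, Mad2l1, Birc5 and Nusap1 are empty.

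Levels are given as RPKM (reads per kilobase of transcript, scaled by the size of the library), which the authors calculated. They are scaled by length but not by base composition, so levels of different genes can be compared only roughly. Differences between si-SMaRT and si-SCR are differences of means on the log2(RPKM + 0.1) scale with their standard error (SE), 2 samples against 2, tested with limma over the 11086 rows with a mean RPKM of at least 0.5, all 44 genes among them. The reads recovered behind the values summed to between 10956774 and 14280291 per sample, and single mitosis genes had between 97 and 9053 reads per sample. The 97, of Cdc25c in si-SCR 2, is a lower limit, as its counted length did not equal the gene model. The sums include such rows too. With 2 samples per group no exact permutation test can go below 0.333. Lnc-SMaRT itself had an RPKM of 19.1 and 15.9 in the si-SCR samples and of 2.88 and 3.65 in the si-SMaRT samples, and fell by 2.39 ± 0.28 on the log2 scale (adjusted p = 0.000882). The defining markers of differentiating muscle were present in all samples, as in the differentiating cultures the labels name. The summed RPKM of 14 such genes was 18347 and 16657 in si-SCR and 10693 and 7923 in si-SMaRT, and none was at 0. The 11 markers of undifferentiated myoblasts in the table summed to 555.9 and 655.1 in si-SCR and to 707.2 and 481.4 in si-SMaRT, and Pax7 was not in the table. These sums mostly follow the most abundant markers. In si-SMaRT 2 some of the 11 were at their highest and others at their lowest of the 4 samples.

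All 44 mitosis genes were transcribed on day 2 of differentiation, at means of 2.001 (Cdca8) to 53.1 (Ncapd2) RPKM in si-SCR. Their summed RPKM was 599.8 and 514.8 in the si-SCR samples and 575.2 and 758.9 in the si-SMaRT samples, so the sum of si-SMaRT 1 lay between the sums of both control samples and that of si-SMaRT 2 above them. Of the 44 genes, 40 had a higher mean in si-SMaRT, against 52.3% of all rows, and the median difference was 0.31, against 0.02 over all rows. None of the 44 passed an adjusted p of 0.05, which 0.505% of all rows did. The paper tested the same samples with edgeR on counts, called more genes and linked most of the raised ones to proliferation. Its calls were not compared with these gene by gene. At an unadjusted p under 0.05 there was 1 of the 44 (Incenp), against 9.09% of all rows. Both si-SMaRT samples were above both si-SCR samples for 15 genes, against 20.2% of all rows, and below them for 1 gene (Bub1b), against 20.4% of all rows. The highest of the 4 values was in si-SMaRT 2 for 32 genes and in si-SMaRT 1 for 8, and the lowest was in si-SCR 2 for 32. The shares of all rows with these orders were not counted, so the orders are not known to be particular to these genes.

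**Figure D2:**
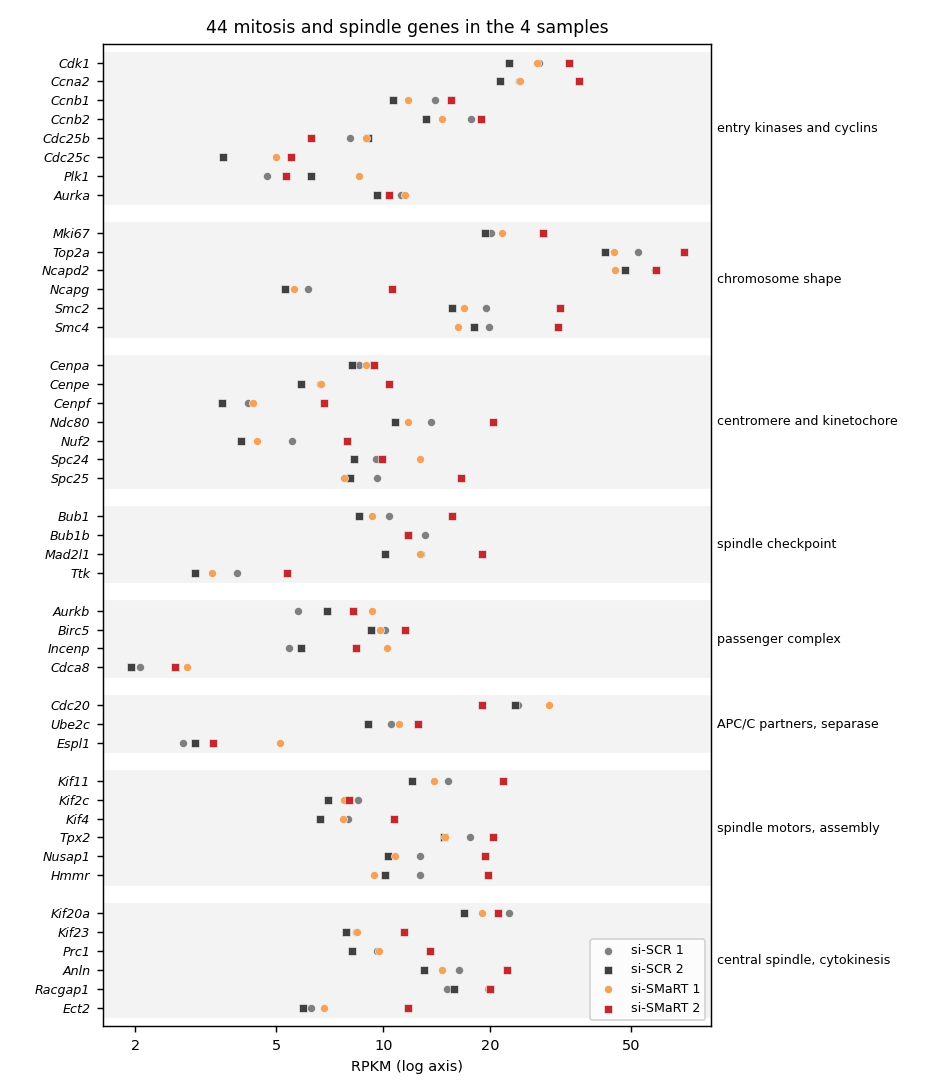
RPKM of the 44 genes in each sample, on a log axis, grouped by role. Grey symbols are the si-SCR samples and coloured ones the si-SMaRT samples, with circles for replicate 1 and squares for replicate 2. For 32 genes the rightmost symbol is the red square of si-SMaRT 2, while in the passenger complex si-SMaRT 1 is highest for 3 of the 4 genes. The share of all rows with such orders was not counted.

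The kinases and cyclins that open mitosis had a median difference of 0.19 over 8 genes. Cdk1, the kinase that drives entry into mitosis, had an RPKM of 27.5 and 22.7 in si-SCR and of 27.0 and 33.3 in si-SMaRT. Ccna2, encoding the cyclin A2 of S and G2 phase, had 24.2 and 21.2 against 24.3 and 35.6. The Cdk1 groups overlapped, and those of Ccna2 were separated by less than 1 RPKM (difference 0.38 ± 0.28, adjusted p = 0.760). The B-type cyclins that CDK1 needs for entry overlapped as well, with 14.0 and 10.7 against 11.7 and 15.5 for Ccnb1 and with 17.6 and 13.2 against 14.6 and 18.8 for Ccnb2. Of the CDC25 phosphatases that activate CDK1, Cdc25c had a difference of 0.24 ± 0.30 and Cdc25b one of -0.19 ± 0.28, the lowest of all 44 genes. Plk1, the polo-like kinase of centrosome maturation and mitotic exit, had 4.70 and 6.26 in si-SCR and 8.56 and 5.33 in si-SMaRT, with si-SMaRT 1 the highest sample. Aurka, the centrosomal Aurora kinase, showed the smallest difference in this group, 0.07 ± 0.27.

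The genes that shape mitotic chromosomes included the most abundant of the 44. Top2a, the topoisomerase that untangles sister DNA, had an RPKM of 52.3 and 42.2 in si-SCR and of 44.6 and 70.2 in si-SMaRT. Ncapd2, a subunit of condensin I, had 58.1 and 48.1 against 44.9 and 58.7. Both rows join the gene with a small RNA gene that overlaps it (Gm23451 with Top2a, Scarna10 with Ncapd2), so reads of these cannot be assigned apart. Smc2 and Smc4, the ATPase core of condensin, had 19.5 and 15.7 against 16.8 and 31.4, and 19.8 and 18.1 against 16.3 and 31.0. Ncapg, another condensin I subunit, had 6.14 and 5.29 against 5.61 and 10.5. In all 6 genes si-SMaRT 2 was the highest sample, and in Ncapd2 and Smc4 si-SMaRT 1 was the lowest. Mki67 encodes the coat protein Ki-67 of mitotic chromosomes and is the usual marker of dividing cells. It was the only one of the 6 whose groups did not overlap, with 20.1 and 19.3 against 21.6 and 28.2 (difference 0.33 ± 0.27, adjusted p = 0.801). Over all rows, 20.2% had both si-SMaRT samples above both si-SCR samples.

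The 7 centromere and kinetochore genes all had a higher mean in si-SMaRT, against 52.3% of all rows, with a median difference of 0.35. Ndc80, which binds microtubules at the outer kinetochore, was the most abundant, with an RPKM of 13.6 and 10.8 in si-SCR and of 11.7 and 20.4 in si-SMaRT. Spc24, its partner in the NDC80 complex, had 9.55 and 8.29 against 12.7 and 9.89, whereas Spc25, the other partner, had 9.62 and 8.06 against 7.72 and 16.5. Within this one complex Spc24 was thus highest in si-SMaRT 1, and Ndc80, Nuf2 and Spc25 were highest in si-SMaRT 2. Cenpa, the histone variant that marks the centromere, varied least within the groups, with 8.52 and 8.14 against 8.92 and 9.43 (difference 0.14 ± 0.27). Cenpe, a kinesin that moves chromosomes to the spindle equator, and Cenpf, a large outer kinetochore protein, had differences of 0.41 ± 0.29 and 0.49 ± 0.30. Cenpa, Spc24, Cenpe and Cenpf, 4 of the 7 genes, had both si-SMaRT samples above both si-SCR samples, against 20.2% of all rows.

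Of the 4 spindle checkpoint genes, 3 had a higher mean in si-SMaRT, against 52.3% of all rows, and none passed the test. Bub1b, encoding the checkpoint protein BUBR1, had an RPKM of 13.1 and 11.7 in si-SCR and of 11.7 and 11.7 in si-SMaRT, a difference of -0.08 ± 0.26. It was the only one of the 44 with both si-SMaRT samples below both controls, by a margin smaller than the rounding of these values. Mad2l1, the MAD2 protein that inhibits CDC20, had 12.7 and 10.1 against 12.7 and 19.0, and si-SMaRT 1 lay within 0.1 RPKM of si-SCR 1. Bub1 and Ttk, the kinases that recruit the checkpoint to kinetochores, had differences of 0.35 ± 0.30 and 0.30 ± 0.31 with overlapping groups.

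The chromosomal passenger complex, which corrects wrong attachments of chromosomes and later moves to the central spindle, held the gene with the largest difference. Incenp, its scaffold, lies at chr19:9872296-9899551 on the minus strand and had an RPKM of 5.43 and 5.87 in si-SCR and of 10.3 and 8.38 in si-SMaRT. Both si-SMaRT samples were well above both controls, and the means were 5.65 ± 0.31 and 9.33 ± 1.33 (SD, n = 2), a difference of 0.71 ± 0.27 (unadjusted p = 0.0197, adjusted p = 0.383). Aurkb, the Aurora kinase that works on this scaffold, had 5.74 and 6.94 against 9.29 and 8.23. Cdca8, the borealin subunit, had 2.06 and 1.94 against 2.81 and 2.59. The groups of both were separate, with differences of 0.46 ± 0.27 and 0.41 ± 0.30. With Incenp, 3 of the 4 genes thus had both si-SMaRT samples above both si-SCR samples, against 20.2% of all rows. Birc5, the survivin subunit, overlapped between the groups, with 10.1 and 9.21 against 9.79 and 11.5. The summed RPKM of the 4 genes was 23.4 and 24.0 in si-SCR and 32.2 and 30.7 in si-SMaRT, with both si-SMaRT sums above both si-SCR sums.

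The 3 genes of this group act with the anaphase-promoting complex or after it. Cdc20, the activator of the complex in mitosis, had an RPKM of 24.0 and 23.5 in si-SCR and of 29.2 and 18.9 in si-SMaRT, so the samples of the knockdown lay on either side of the controls. Ube2c, the ubiquitin-conjugating enzyme of the complex, had 10.5 and 9.04 against 11.1 and 12.5. Espl1, the separase that cuts cohesin at anaphase, had 2.72 and 2.96 against 5.12 and 3.32, a difference of 0.53 ± 0.30 (adjusted p = 0.645).

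The motors and assembly factors of the spindle all overlapped between the groups, with a median difference of 0.29 over 6 genes. Over all rows, 20.2% had both si-SMaRT samples above both si-SCR samples and 20.4% had both below. Tpx2, which activates Aurora A on the spindle, had an RPKM of 17.6 and 14.8 in si-SCR and of 14.9 and 20.3 in si-SMaRT. Kif11, the kinesin that pushes the spindle poles apart, had 15.2 and 12.1 against 13.9 and 21.7, and Hmmr, a spindle-associated protein, had 12.7 and 10.1 against 9.44 and 19.8. In Hmmr the si-SMaRT samples were thus the lowest and the highest of the 4. Kif2c, a kinesin that depolymerizes microtubules, differed by 0.03 ± 0.27.

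Of the 6 genes of the central spindle and cytokinesis, 4 had both si-SMaRT samples above both si-SCR samples, against 20.2% of all rows. Racgap1, a GTPase-activating subunit of centralspindlin, had an RPKM of 15.1 and 15.9 in si-SCR and of 19.7 and 19.9 in si-SMaRT. The samples of each group lay within 1 RPKM of each other, with means of 15.5 ± 0.54 and 19.8 ± 0.14 (SD, n = 2), but the difference of 0.35 ± 0.26 did not pass the test (adjusted p = 0.758). Ect2, the exchange factor that RACGAP1 activates at the cell equator, had 6.26 and 5.94 against 6.79 and 11.7. Prc1, which bundles midzone microtubules, and Kif23, the kinesin of centralspindlin, had differences of 0.37 ± 0.28 and 0.28 ± 0.28. Kif20a, the kinesin that brings passengers to the midzone, had 22.6 and 16.8 against 19.0 and 21.04, and Anln, the ring scaffold anillin, had 16.3 and 13.01 against 14.6 and 22.2, both with overlap.

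The difference between the si-SMaRT samples followed the base composition of the transcripts. Between si-SMaRT 2 and si-SMaRT 1 the median of the 44 genes differed by 0.42 on the log2 scale, more than the median difference between the groups, and between si-SCR 2 and si-SCR 1 it differed by -0.23. Across the 44 genes, the si-SMaRT 2 minus 1 difference had a Spearman correlation of -0.88 with the GC content of the exons, and across all rows with a GC content it was -0.84. These genes share the same 4 libraries and are not independent replicates. The mitosis genes had a median GC content of 46.4%, against 49.1% for all rows tested, and 31 of the 44 lay under that median. In these 31 genes the median difference from the si-SCR mean was 0.006 for si-SMaRT 1 and 0.64 for si-SMaRT 2, and all 31 were higher in si-SMaRT 2 than in si-SMaRT 1. Among all 5467 rows under the median GC content, these differences were -0.096 and 0.29, and 4638 rows were higher in si-SMaRT 2 than in si-SMaRT 1. In the other 13 genes the median difference was 0.30 for si-SMaRT 1 and 0.15 for si-SMaRT 2. Among all 5468 rows at or over the median it was 0.13 and -0.31. Ncapg, with the lowest GC content (36.1%), differed by 0.90 between the si-SMaRT samples, and Plk1, with the highest (56.0%), by -0.67. The part of base composition in the difference between the groups was examined by removing each sample's trend with GC content.

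**Figure D3:**
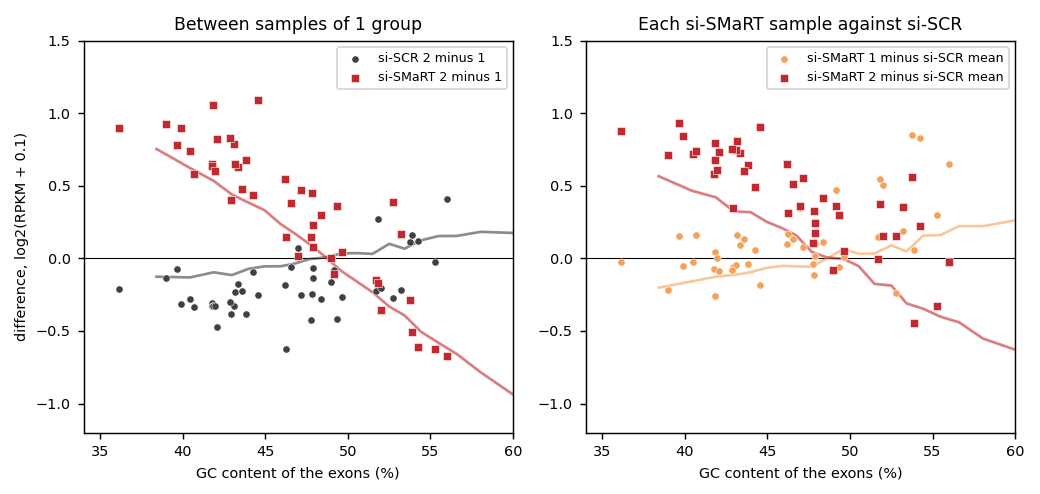
Differences of the 44 genes (points) against the GC content of their exons in percent, on the log2(RPKM + 0.1) scale, left between the samples of 1 group and right between each si-SMaRT sample and the mean of si-SCR. Lines join the medians of all rows in 20 bins of GC content. The si-SMaRT 2 minus 1 points run from 0.90 for Ncapg to -0.67 for Plk1 as GC content rises from 36.1% to 56.0%.

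With the GC trend of each sample removed, the median difference between si-SMaRT 2 and si-SMaRT 1 over the 44 genes was 0.07 (10935 rows had a GC content and were fitted), and the median difference between the groups was 0.21. The groups were then separate, with si-SMaRT higher, for 24 of the 44 genes, against 27.7% of all rows. Incenp passed the test, with a difference of 0.80 ± 0.14 (adjusted p = 0.0211, higher in 2 of 2 samples), as 1.8% of all rows did in this direction. Espl1 (0.63 ± 0.16, adjusted p = 0.0643) and Aurkb (0.52 ± 0.15, adjusted p = 0.0848) came next and did not pass. When trends with exon length were removed too, all 3 passed, with differences of 0.78 ± 0.12, 0.53 ± 0.13 and 0.56 ± 0.14 and adjusted p of 0.00845, 0.0443 and 0.0439, against 3.49% of all rows called higher. With only the GC trend removed, Cdk1 (0.25 ± 0.15), Ccna2 (0.31 ± 0.14) and Mki67 (0.27 ± 0.13) had separate groups and did not pass. Top2a (0.11 ± 0.14), Smc4 (0.07 ± 0.13) and Ccnb1 (0.02 ± 0.15) had overlapping groups and did not pass either. The same held for Ncapd2 (0.03 ± 0.22), the most abundant of the 44 genes in si-SCR.

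**Figure D4:**
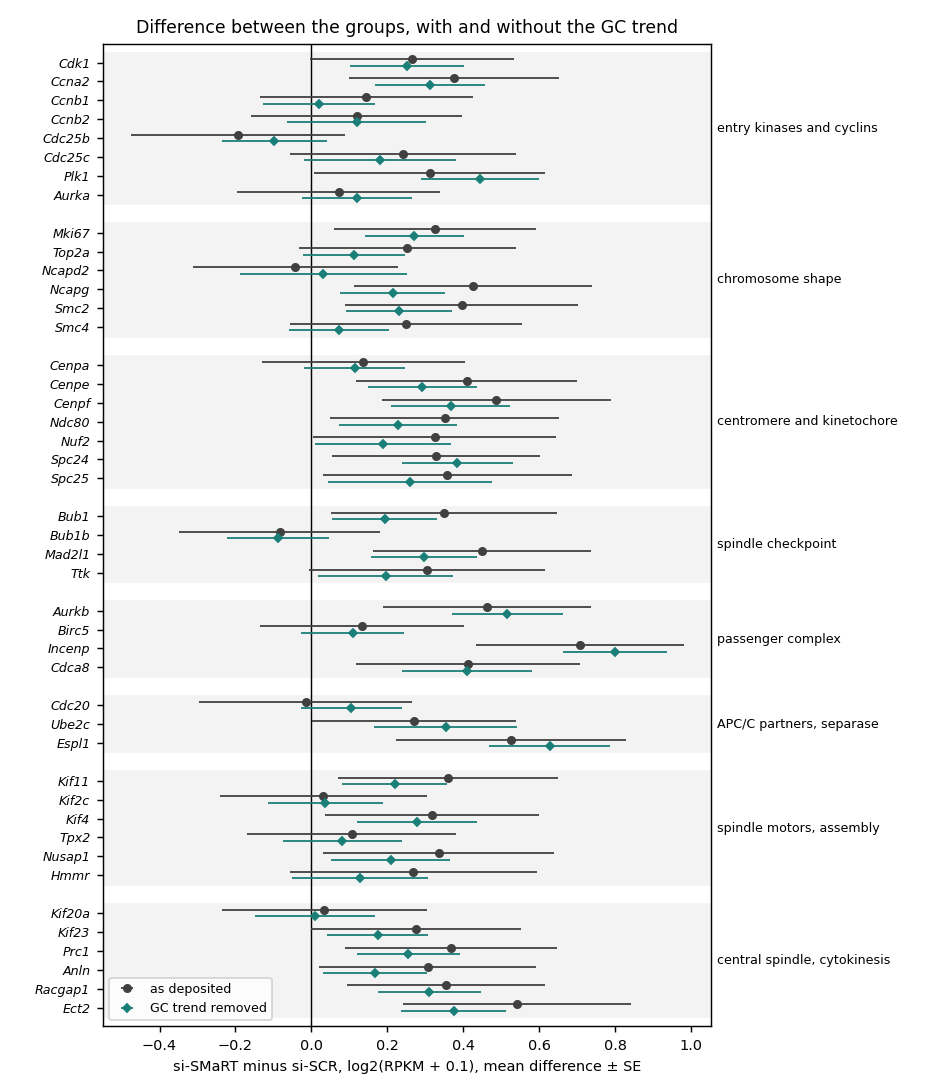
Difference between si-SMaRT and si-SCR on the log2(RPKM + 0.1) scale for each of the 44 genes, as mean difference with its SE from limma (2 samples against 2). Black circles are the values as deposited and green diamonds those with the GC trend of each sample removed, which have narrower bars. Incenp lies furthest to the right in both, at 0.71 and 0.80.

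The count of mitosis genes past the threshold turned on which si-SMaRT sample was used. By the read numbers in the paper, si-SMaRT 1 lost a far larger part of its read pairs to rRNA and tRNA than any other sample. Whether this bears on the difference between the si-SMaRT samples was not tested. Without si-SMaRT 1, which leaves 1 knockdown sample that is assumed to vary like the controls, 22 of the 44 genes were called higher, against 11.3% of all rows. These 22 included Ect2 (0.93 ± 0.22), Spc25 (0.90 ± 0.21), Ncapg (0.88 ± 0.22) and Smc2 (0.84 ± 0.20). Without si-SMaRT 2 there were 3 genes called higher, Incenp (0.85 ± 0.22), Espl1 (0.83 ± 0.25) and Plk1 (0.65 ± 0.22), against 4.98% of all rows. Incenp was the only gene in both counts. The median difference of the 44 genes was 0.50 without si-SMaRT 1 and 0.06 without si-SMaRT 2. With the GC trend removed these counts were 3 and 2, against 4.5% and 5.15% of all rows. In the same fit with either si-SCR sample left out, 0 of the 44 passed, and the adjusted p of Incenp was 0.334 without si-SCR 1 and 0.152 without si-SCR 2, where 1 and 0 of all rows passed.

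Other genes of mitosis were described by the same counts, from lists of 122 genes of which all were tested and none passed at an adjusted p of 0.05. Of the 122, 93 had a higher mean in si-SMaRT, and the median difference was 0.22. Over all rows these values were 52.3% and 0.02, which are the background for the lists that follow too. The groups were separate for 43 with si-SMaRT higher (20.2% of all rows) and for 8 with si-SMaRT lower (20.4% of all rows). Other mitotic kinases and their regulators were higher in the mean for 15 of 15 genes, with a median of 0.36, led by Gtse1, a microtubule-binding protein of G2 phase, at 4.79 and 6.27 RPKM against 10.9 and 8.86 (0.83 ± 0.28, adjusted p = 0.282). Subunits and inhibitors of the anaphase-promoting complex stood at the other end, with 5 of 15 higher and a median of -0.04, from Fzr1, the activator of the complex after mitosis (-0.35 ± 0.35), to Fbxo5, its inhibitor EMI1 (0.72 ± 0.30). The 33 other kinetochore genes had a median of 0.24 and ran from Bub3 (-0.28 ± 0.26) to Cenph (0.68 ± 0.31). The 25 other kinesins and spindle factors had a median of 0.25 and ran from Haus7, of the augmin complex (-0.69 ± 0.26), to Ckap2 (0.65 ± 0.29). The 16 other condensin and cohesin genes had a median of 0.27 and ran from Ncaph2 (-0.39 ± 0.28) to Cdca5, the cohesin protector sororin (0.75 ± 0.29). With the GC trend removed 4 of the 122 (against 4.42% of all rows, so a share near the background) passed: Gtse1 (0.94 ± 0.16, adjusted p = 0.0181), Cdca5 (0.79 ± 0.17, adjusted p = 0.0395), Mybl2 (0.92 ± 0.21, adjusted p = 0.0433) and, lower in si-SMaRT, Haus7 (-0.65 ± 0.14, adjusted p = 0.0361).

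The 18 factors that control transcription of mitosis genes had a median difference of 0.21, with 15 higher in the mean. Mybl2, the B-MYB activator that works through the CHR, had an RPKM of 1.16 and 1.42 in si-SCR and of 3.23 and 1.64 in si-SMaRT. E2f7, a repressor of E2F targets, had 0.649 and 0.880 against 1.55 and 1.60, the highest difference of the list (0.97 ± 0.33, adjusted p = 0.284). Lin37, a subunit of the DREAM complex, had 8.26 and 8.11 against 5.998 and 5.54, the lowest (-0.50 ± 0.27, adjusted p = 0.610). The 28 mitosis genes with a CHR had a median difference of 0.31 and the 8 without one in the window had 0.33, and this difference between them was not tested.

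Set beside mitosis, 43 genes of DNA replication and S phase had a median difference of 0.27, with 36 higher in the mean and 21 with separate groups, si-SMaRT higher, against 20.2% of all rows. None passed as deposited. With the GC trend removed 6 passed, against 1.8% of all rows called in this direction, all higher in si-SMaRT: Ccne1, Ccne2, Cdc6, Cdt1, Mcm4 and Uhrf1. Mcm4, a subunit of the replicative helicase, had an RPKM of 14.4 and 15.1 in si-SCR and of 23.7 and 25.4 in si-SMaRT, a difference of 0.73 ± 0.26, and Ccne1, the cyclin of entry into S phase, had 4.75 and 5.66 against 8.48 and 7.95. Whether the S phase and the mitosis genes differed from each other was not tested. A list around cell cycle exit, with 12 tested genes, also holds D-type cyclins, so a rise in it need not mean more exit. Of the 12, 1 passed, against 0.505% of all rows. It was Ccnd1, encoding cyclin D1, with 3.96 and 3.27 against 9.17 and 9.60 (1.36 ± 0.28, adjusted p = 0.0356). Ccnd3, the D-type cyclin of muscle, was the lowest, with 18.7 and 21.2 against 17.3 and 9.96 (-0.60 ± 0.30, adjusted p = 0.572).

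Markers of both cell states in these cultures are given beside the mitosis genes. Of the 14 markers of differentiating myocytes and myotubes, 13 had a lower mean in si-SMaRT and 12 had both si-SMaRT samples below both controls, against 20.4% of all rows, with a median difference of -0.92. Once the GC trend was removed 7 of the 14 passed (Mb, Ckm, Tnnc2, Myl4, Cav3, Mef2c and Casq2), all lower in si-SMaRT, against 2.62% of all rows called in this direction. Myoglobin (Mb) passed the test as deposited, with an RPKM of 349 and 247 against 96.4 and 71.5 (-1.82 ± 0.29, adjusted p = 0.00852). Myh8, the perinatal myosin, was the single marker with a higher mean, 12.9 and 15.1 against 23.6 and 19.0. Of the 11 markers of undifferentiated myoblasts 5 had a higher mean in si-SMaRT, with a median difference of -0.004 and with Id3, an inhibitor of differentiation, past the threshold (1.60 ± 0.30, adjusted p = 0.0232), at 2.91 and 3.20 against 12.3 and 7.26. The part of the mixture of cells in the values of the mitosis genes was not tested.

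The pull-down of lnc-SMaRT was searched for transcripts of the 44 genes. The deposited lists held 345 peaks for lnc-SMaRT and 336 for LacZ, in bins of 200 bases. Of the 44 genes, 0 had a peak of either list in an exon or in the gene body, on the same or the opposite strand. The share of all genes with a peak was not counted. With so few peaks beside the 11642 rows of the expression table, a count of 0 does not show that these transcripts were unbound. With 1 library for each pull-down the count has no replicate check.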

How the data were processed

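Total RNA of the 4 samples was sequenced as paired reads from stranded, ribosome-depleted libraries. The authors trimmed the reads (Trimmomatic), removed rRNA and tRNA (Bowtie 2), aligned to GRCm38 (TopHat2, Ensembl 77), counted per gene (htseq-count), normalized by TMM and deposited RPKM values made with edgeR. Genes with low CPM were absent from the table. Reads behind the values were recovered as whole multiples (tolerance 0.0001) for all 11642 rows, of which the counted length equalled the GENCODE M21 gene model in 6471, so that the other rows give lower limits. Effective library sizes were 12654120, 14132628, 11291255 and 14312935 reads (si-SCR 1 and 2, si-SMaRT 1 and 2).

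Differences were tested with limma 3.58.1 under R 4.3.3 (linear fit, trended eBayes, Benjamini-Hochberg) on log2(RPKM + 0.1), which understates the change of low genes. The pseudocount was 0.1, the minimum mean RPKM 0.5 and the threshold 0.05. The GC trend of each sample was removed by loess (span 0.3). Scripts were tested on simulated data. The authors called peaks with Piranha, each with a p-value, taking the input as covariate for both pull-downs and also setting lnc-SMaRT against LacZ. The deposited lnc-SMaRT list does not say which of these it holds, and only positions and the p-value were used here. The 44 genes, the other lists and the alternatives were chosen with earlier results of these data known. All 44 could be named, with the highest, the lowest and any called gene of the other lists. The main test did not pair samples by replicate number, as the labels do not say whether same-numbered samples share a cell population. Same-numbered samples deviated in opposite directions (correlation across genes -0.36), which does not settle this. Tables were handled in pandas 2.3.3, numpy 2.4.6 and scipy 1.17.1 (Python 3.11.15), and plots drawn in matplotlib 3.10.9.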

Additional observations from a re-analysis of the deposited data

How the results depend on the processing

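None of the 44 mitosis genes passed at the other pseudocounts (1 and 0.01), with no filter or a minimum mean RPKM of 2, with quantile normalization, with no trend in the prior variance or with voom on the recovered reads, a test on reads. Over all rows, which had 56 calls, quantile normalization gave 37 and voom 108. With the GC trend removed 1 mitosis gene, 4 other mitotic genes and 483 rows passed, and with GC and length trends removed 3, 12 and 815. The median difference between the si-SMaRT samples was 0.42 as deposited, 0.066 with the GC trend removed and 0.108 with both trends removed. The sign turned for Cdc20 with quantile normalization (0.012), the GC trend removed (0.105) and both removed (0.252), for Ncapd2 with quantile normalization (0.026) and the GC trend removed (0.032), and for Kif20a with both removed (-0.010). In promoters, the variant TTCGAA was in 2 genes when the window began 100 bases before the start.

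The replicate number as a block left 0 mitosis genes and gave 96 calls over all rows. With the block and the GC trend removed there were 130 calls, 0 of them among the mitosis genes (Incenp had an adjusted p of 0.0671) and 1 among the other mitotic genes, with 0.066 between the si-SMaRT samples and 0.105 for Cdc20 and 0.032 for Ncapd2. Whether same-numbered samples share a cell population is not stated. The correlation of -0.36 between their deviations cannot settle it, as both replicate differences followed GC content. Over all rows, their Spearman correlation with GC content was -0.84 in si-SMaRT and 0.35 in si-SCR. A crossed block, chosen after seeing the data, gave 487 calls, 3 of them among the other mitotic genes.

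With 1 sample left out, with or without the GC trend (the latter chosen after seeing the data), 0 to 22 mitosis genes, 0 to 52 other mitotic genes and 0 to 2908 rows passed. The median difference of the mitosis genes ran from 0.060 to 0.50, and that of lnc-SMaRT from -2.55 to -2.22, which did not pass without either si-SCR sample once the GC trend was removed. For 22 mitosis genes the sign did not turn in any of these fits. For the other 22 the ranges were -0.087 to 0.74 for Nuf2, -0.261 to 0.80 for Hmmr, -0.074 to 0.58 for Top2a, -0.117 to 0.35 for Ccnb1, -0.045 to 0.75 for Ndc80, -0.191 to 0.25 for Kif20a, -0.103 to 0.55 for Cdc25c, -0.081 to 0.75 for Nusap1, -0.447 to 0.060 for Cdc25b, -0.118 to 0.33 for Tpx2, -0.187 to 0.90 for Spc25, -0.022 to 0.72 for Bub1, -0.040 to 0.25 for Aurka, -0.216 to 0.71 for Smc4, -0.052 to 0.84 for Smc2, -0.103 to 0.18 for Kif2c, -0.326 to 0.30 for Cdc20, -0.024 to 0.88 for Ncapg, -0.304 to 0.37 for Ncapd2, -0.026 to 0.65 for Plk1, -0.036 to 0.64 for Ttk and -0.091 to 0.33 for Ccnb2. With 2 samples per group the cause of these shifts was not tested.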
